A study of Homo sapiens with 12 samples.

Results

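The serum- and glucocorticoid-regulated kinases SGK1, SGK2 and SGK3, the ubiquitin ligase gene NEDD4L and 6 genes of the insulin branch of phosphoinositide 3-kinase (PI3K) signalling (INSR, IRS1, IRS2, PIK3R1, PIK3CA and FOXO1) were followed in HepG2 cells. These 10 genes were chosen by symbol out of 28256 gene symbols in the deposited counts, and each was read from its transcript with the largest summed count. HepG2 is 1 established line from a human hepatoma, and its labelled genotype is WT. Cells of the 4 groups were kept for 24 h in charcoal-stripped serum medium and were then treated for 24 h with both agents (DexKLA, Dex 50 nM plus KLA), with dexamethasone alone (Dex, 50 nM), with KLA alone (labelled 100 ng/µl) or with the vehicle (DMSO, 0.1%). Dexamethasone is a synthetic glucocorticoid, and KLA is not spelled out in the labels. These state the DMSO percentage of the vehicle cells only, and they give no doses of their own for the combined group beyond the treatment text. RNA was sequenced in 12 libraries, 3 a group. Nothing states that the 3 came from separate cultures, so the p-values rest on the spread of these libraries alone, and that spread may be technical.

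Insulin binds the receptor encoded by INSR, which phosphorylates the adaptors IRS1 and IRS2. These recruit PI3K, made of a regulatory subunit such as the p85 alpha protein of PIK3R1 and a catalytic subunit such as the p110 alpha protein of PIK3CA. The lipid it makes activates AKT and, through the same upstream kinases, the SGK family, and both phosphorylate FOXO factors, which keeps them out of the nucleus and lowers gluconeogenic transcription in the liver. SGK1 transcription is raised by glucocorticoids in many cell types, and SGK1 phosphorylates NEDD4L, the ligase that removes the epithelial sodium channel from the cell surface.

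Totals ranged from 3317740 to 20933501 counts a library, and every KLA library was deeper than every DMSO library, so depth and KLA treatment cannot be told apart between those groups. The 8 hepatocyte and hepatoma markers looked at were at 134 CPM or more in every library, where CPM scales a count to its library's total after TMM normalisation. CD3E was at 0 in every library, PTPRC and DCN did not exceed 0.0641 CPM, and CD68 lay between 43.2 and 55.4 CPM in all 12. A library's deviations from the gene means followed transcript length, with a Spearman rho over genes, which are not independent replicates, from −0.53 (Dex replicate 2 and KLA replicate 3) to 0.40 (DMSO replicate 3). That trend and depth moved with the groups, and their part in the differences was not tested beyond the alternative fits given with the called members and the lists. Scaling by library size alone moved the median log2 fold change of all genes to −0.11 for Dex, −0.13 for KLA and −0.12 for DexKLA against DMSO, from values within 0.02 of 0. Under it, 26.3% (Dex), 23.7% (KLA) and 27.7% (DexKLA) of the called genes were higher than in DMSO, in place of 59.3%, 56.7% and 67.3%.

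SGK1, the glucocorticoid-regulated kinase of the family, was lower in all 3 treated groups than in DMSO. Its level was 28.3, 29.2 and 28.1 CPM in the DexKLA libraries, 23.8, 24.4 and 26.0 CPM with Dex, 38.6, 31.6 and 26.5 CPM with KLA, and 44.5, 40.5 and 43.2 CPM with DMSO. The Dex and DexKLA libraries each kept within a narrow band, the KLA libraries spread widely, and no treated library reached the lowest DMSO library. Mean levels were 28.6 ± 0.618 CPM with DexKLA, 24.7 ± 1.09 CPM with Dex, 32.2 ± 6.06 CPM with KLA and 42.8 ± 2.01 CPM with DMSO (SD, n = 3 each). Against DMSO, SGK1 fell by 0.79 ± 0.14 on the log2 scale with Dex (fitted value ± SE, adjusted p = 0.00359 by edgeR's quasi-likelihood F test, Benjamini-Hochberg adjusted). With DexKLA it fell by 0.58 ± 0.13 (adjusted p = 0.0223) and with KLA by 0.41 ± 0.13 (adjusted p = 0.04, same test). In bulk RNA, fewer cells that carry a transcript and less of it per cell cannot be told apart.

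The 3 SGK1 differences did not hold equally well. The fall with Dex was called, at an adjusted p under 0.05, under each of 26 processing alternatives, with log2 fold changes from −0.89 to −0.69, and without each of the 12 libraries in turn. Libraries were also split by total count into a deeper and a shallower class. The shallower were all DMSO libraries, Dex replicates 1 and 3 and DexKLA replicate 2. These alone gave −0.77 for Dex against DMSO (adjusted p = 0.001). For DexKLA the call held under 20 of 26 alternatives and was lost without DMSO replicate 1 (adjusted p = 0.128) or replicate 3 (0.0574), and without DexKLA replicate 1 (0.0891) or replicate 2 (0.0692). In the shallower libraries alone, with 1 DexKLA library, the value was −0.54. The call was also lost with the depth class as a covariate (−0.55, adjusted p = 0.106). For KLA it held under 12 of 25 alternatives and in 4 of the 12 fits that left out a library. It was lost without DMSO replicate 1 (adjusted p = 0.135), 2 (0.0711) or 3 (0.0968), Dex replicate 1 (0.0502) or 3 (0.0552), KLA replicate 2 (0.0775) and DexKLA replicate 2 (0.0509). Without KLA replicate 3, which had the lowest SGK1 level of its group, the KLA value was −0.28 (adjusted p = 0.152). The KLA call was also lost with the depth class as a covariate (−0.36, adjusted p = 0.354). All KLA libraries were deeper and all DMSO libraries shallower, so the class effect came from Dex and DexKLA libraries alone. The SE rose from 0.129 to 0.198, and this fit cannot separate depth from KLA treatment. Leaving out both DMSO replicate 1 and KLA replicate 3, the pair farthest apart on the first principal component, gave −0.26 (adjusted p = 0.304). That pair was picked from these same data with 1 library of each side. Its removal favours smaller KLA values in advance, here and below.

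**Figure D1:**
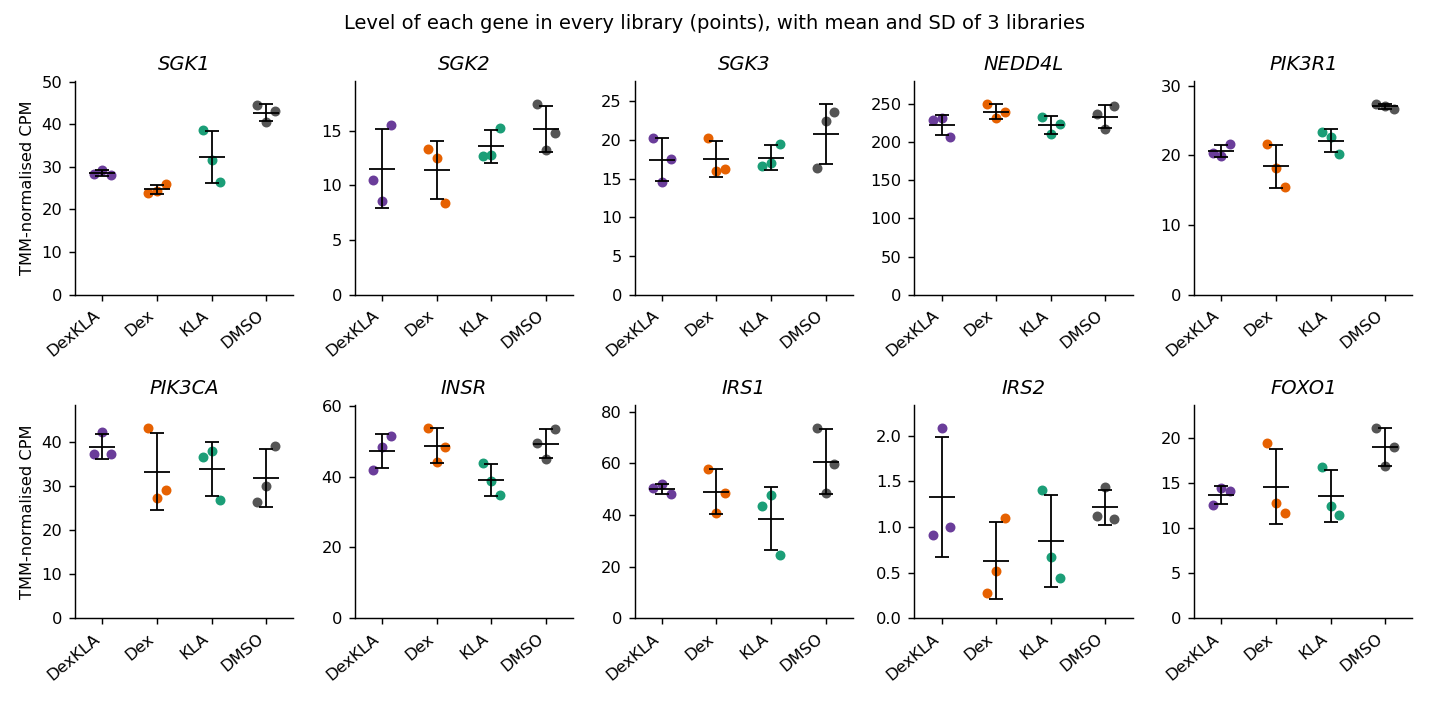
TMM-normalised CPM of each of the 10 genes in every library (points, replicates 1 to 3 from left to right), with the mean (bar) and SD of 3 libraries, in the groups DexKLA, Dex, KLA and DMSO. For SGK1 the 9 treated libraries lie between 23.8 and 38.6 CPM and the 3 DMSO libraries between 40.5 and 44.5 CPM, and NEDD4L lies near the same level in all 4 groups.

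Adding the second agent gave no called change of SGK1. DexKLA libraries were higher than Dex libraries without overlap (0.20 ± 0.14, adjusted p = 0.766), as were 6.4% of all tested genes, and DexKLA differed from KLA by −0.18 ± 0.13 (adjusted p = 0.633). The fitted DexKLA level lay above the sum of the Dex and KLA effects. This interaction was 0.61 ± 0.19 log2 units (95% interval 0.24 to 0.98) with an unadjusted p of 0.00374, and it missed the threshold after adjustment over all genes (adjusted p = 0.0783, edgeR's quasi-likelihood F test, Benjamini-Hochberg adjusted).

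The SGK1 transcript read here runs from 134169256 to 134174866 on the minus strand of chromosome 6 (hg38). The file lists 5 SGK1 transcripts that share most of their reads, with totals within 1.05-fold of each other. The other 4 gave the same call for Dex, with log2 fold changes from −0.79 to −0.76. For DexKLA 4 of these 4 were called, and for KLA 2. Since the transcripts share reads, their calls are not separate measures. Promoters of the members are shown for the start of the SGK1 transcript used and for an upstream SGK1 start, because SGK1 had the lowest adjusted p of the 10 and is a known glucocorticoid-responsive gene. Sequences are RefSeq's on GRCh38.p14, 250 bases before the start and 50 from it, read 5′ to 3′ on the gene's strand. Capitals mark a match to AGAACA or its reverse complement TGTTCT, 1 arm of the palindromic element that the glucocorticoid receptor binds.
SGK1, start of the transcript used, chr6:134174817-134175116, minus strand: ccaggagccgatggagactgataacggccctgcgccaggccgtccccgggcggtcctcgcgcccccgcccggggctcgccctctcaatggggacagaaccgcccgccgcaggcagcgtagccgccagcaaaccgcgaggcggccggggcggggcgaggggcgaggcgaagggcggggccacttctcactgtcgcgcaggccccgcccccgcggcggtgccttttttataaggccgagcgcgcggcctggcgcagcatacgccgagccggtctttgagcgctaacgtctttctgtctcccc
SGK1, upstream start, chr6:134177812-134178111, minus strand: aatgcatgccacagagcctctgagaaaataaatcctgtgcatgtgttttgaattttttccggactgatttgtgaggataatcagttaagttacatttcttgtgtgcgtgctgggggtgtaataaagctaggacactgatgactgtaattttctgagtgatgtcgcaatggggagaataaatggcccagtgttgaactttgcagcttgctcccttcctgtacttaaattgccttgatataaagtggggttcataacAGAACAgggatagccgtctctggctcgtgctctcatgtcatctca
The first holds no match, and the second holds 1, whose first base is base 6 from the start site. The farthest upstream SGK1 promoter, chr6:134318063-134318362, is not printed and has none. A match was also found in 1 NEDD4L promoter, at base −78, and in PIK3R1 promoters given with that gene. The promoters of IRS1, IRS2, PIK3CA, FOXO1 and INSR held none. Among 35116 RefSeq promoters of this length, 14.8% held this hexamer on either strand. The full palindrome, AGAACA and TGTTCT with any 3 bases between them, was in none of the 17 promoters found for 8 of the 10 genes (SGK2 and SGK3 were not searched), and in 1 of the 35116. A match describes letters in this window and not a site in use, and a promoter without one says nothing about binding elsewhere.

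SGK2 and SGK3, the relatives of SGK1 that are less tied to glucocorticoids, gave no call in any comparison. SGK2 was at 10.5, 8.59 and 15.5 CPM with DexKLA, 13.3, 12.5 and 8.36 CPM with Dex, 12.7, 12.8 and 15.3 CPM with KLA, and 17.5, 13.3 and 14.8 CPM with DMSO. The groups overlapped, and the Dex value of −0.38 ± 0.21 had an adjusted p of 0.315. SGK2 lies on chromosome 20 (43559027 to 43585627, plus strand, hg38), and 365 of its exon bases are shared with the gene model Z98752.3 on the same strand. SGK3, on chromosome 8, is the member with a phosphoinositide-binding domain that places it on endosomes. It was at 20.2, 14.6 and 17.6 CPM with DexKLA, 20.2, 16.1 and 16.3 CPM with Dex, 16.6, 17.1 and 19.5 CPM with KLA, and 16.3, 22.4 and 23.6 CPM with DMSO. DMSO replicate 1 lay among the treated libraries, and the fitted values against DMSO were −0.24 to −0.29 with adjusted p between 0.299 and 0.408. The deposited counts also list a readthrough gene that runs through SGK3 with nearly the same counts, so SGK3 reads cannot be assigned to SGK3 alone.

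Per kb of transcript, the scale on which genes can be compared, SGK1 was the most abundant kinase of the 3. Its share of the summed CPM per kb of SGK1, SGK2 and SGK3 was 54.2 ± 5.93% with DexKLA, 50.7 ± 5.60% with Dex, 54.0 ± 6.91% with KLA and 58.0 ± 0.651% with DMSO (SD, n = 3 each). With Dex the share differed from that with DMSO by −7.31 percentage points, and every Dex library was below every DMSO library (exact permutation test, two-sided, p = 0.1, the smallest that 3 against 3 libraries allow, 5 comparisons made and none below it). The share includes the SGK2 and SGK3 reads that other gene models may hold. The length trend of the libraries was not removed from it, and the part of either in the difference was not tested.

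NEDD4L, the ligase whose binding to its targets SGK1 phosphorylation blocks, varied least of the 10 over the libraries. Its level was 228, 231 and 207 CPM with DexKLA, 249.5, 231 and 238 CPM with Dex, 233, 209.7 and 223 CPM with KLA, and 236, 217 and 246 CPM with DMSO. All groups overlapped. The log2 fold changes against DMSO were 0.04 with Dex (95% interval −0.15 to 0.23), −0.07 with KLA (−0.26 to 0.12) and −0.07 with DexKLA (−0.26 to 0.12). These intervals reached at most about 0.26 log2 units from 0, the least among the 10 genes. They rest on a normal quantile and are somewhat narrow for 3 libraries a group. NEDD4L lies on chromosome 18 (58044226 to 58401539, plus strand, hg38), and antisense gene models share 768 and 177 of its exon bases. Whether counting used strand is not given in the sources used here, so antisense reads cannot be separated.

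PIK3R1, the regulatory subunit gene, fell with Dex. It was at 20.3, 19.96 and 21.6 CPM with DexKLA, 21.6, 18.2 and 15.4 CPM with Dex, 23.3, 22.7 and 20.2 CPM with KLA, and 27.3, 27.1 and 26.6 CPM with DMSO. Every treated library was below the DMSO libraries, which agreed closely, while the Dex libraries ran from 15.4 to 21.6 CPM. Means were 20.6 ± 0.858 CPM with DexKLA, 18.4 ± 3.12 CPM with Dex, 22.1 ± 1.64 CPM with KLA and 27.0 ± 0.348 CPM with DMSO (SD, n = 3 each). Dex gave −0.56 ± 0.14 on the log2 scale (adjusted p = 0.0404, edgeR's quasi-likelihood F test, Benjamini-Hochberg adjusted). KLA gave −0.29 ± 0.13 (adjusted p = 0.128) and DexKLA −0.38 ± 0.14 (adjusted p = 0.11), and neither passed.

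The PIK3R1 call with Dex was close to the threshold and held under 14 of 26 alternatives and in 6 of the 12 fits that left out a library. With the length trend removed the value was −0.40 (adjusted p = 0.126), and without Dex replicate 3 it was −0.47 (adjusted p = 0.167). It was also lost without any 1 of the DMSO libraries (adjusted p = 0.105 to 0.125), without Dex replicate 2 (0.202) and without DexKLA replicate 2 (0.0527). The depth class as a covariate gave −0.58 (adjusted p = 0.0855), the shallower libraries alone −0.56 (0.0565) and the fit without the farthest pair of libraries −0.56 (0.0535). The p85 alpha transcript used (chromosome 5, 68215756 to 68301821, plus strand, hg38) starts far upstream of the other 3 listed. Those gave −0.46 to −0.45 for Dex with adjusted p between 0.075 and 0.0851, so the direction held and the call did not. All 4 transcripts end at the same base and had totals of 2123 to 2555.5 counts. They share reads, so their calls are not separate measures of each start. The promoter of the p85 alpha start and that of 1 downstream start are printed, with the hexamer again in capitals.
PIK3R1, p85 alpha start, chr5:68215506-68215805, plus strand: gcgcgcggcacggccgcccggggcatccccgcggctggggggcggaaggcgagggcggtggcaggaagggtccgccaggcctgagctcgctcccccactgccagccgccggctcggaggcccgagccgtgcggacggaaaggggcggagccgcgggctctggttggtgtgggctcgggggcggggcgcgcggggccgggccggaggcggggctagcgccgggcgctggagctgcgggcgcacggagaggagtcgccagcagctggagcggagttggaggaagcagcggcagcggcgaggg
PIK3R1, downstream start, chr5:68290414-68290713, plus strand: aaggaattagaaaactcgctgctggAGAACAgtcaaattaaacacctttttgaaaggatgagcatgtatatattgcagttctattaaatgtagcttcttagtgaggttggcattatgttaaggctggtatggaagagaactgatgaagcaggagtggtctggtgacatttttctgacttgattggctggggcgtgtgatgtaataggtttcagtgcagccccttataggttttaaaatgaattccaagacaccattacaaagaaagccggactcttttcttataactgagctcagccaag
No match lies in the first, and the second has 1 at base −225 from its start. Of the other downstream starts, not printed, chr5:68288269-68288568 has none and chr5:68292327-68292626 has 1, at base 42.

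PIK3CA, the catalytic subunit gene, was at 37.2, 42.2 and 37.3 CPM with DexKLA, 43.2, 27.4 and 29.03 CPM with Dex, 36.7, 37.97 and 26.8 CPM with KLA, and 26.5, 29.96 and 39.1 CPM with DMSO. Libraries of all groups overlapped, and the fitted values against DMSO were 0.01 with Dex, 0.08 with KLA and 0.28 ± 0.18 with DexKLA (adjusted p = 0.976, 0.788 and 0.375 in that order). It lies on chromosome 3 (179148357 to 179240093, plus strand, hg38), where KCNMB3 on the opposite strand shares 3403 exon bases with it. Of the promoters searched, that of PIK3CA was the only one with a match to the FOXO site GTAAACA or its reverse complement TGTTTAC, at base −149, as 3.42% of RefSeq promoters of this length have.

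The ratio of PIK3R1 to PIK3CA per kb, regulatory over catalytic subunit, was 0.707 ± 0.0724 with DexKLA, 0.75 ± 0.117 with Dex, 0.879 ± 0.109 with KLA and 1.16 ± 0.235 with DMSO (SD, n = 3 each). The 3 Dex libraries and the 3 DexKLA libraries were all below the 3 DMSO libraries, at differences of −0.41 and −0.45. DexKLA libraries were also all below KLA libraries, by −0.17. Each of these gave an exact permutation p = 0.1 (two-sided), the smallest possible with 3 against 3, so the design could not take any of them past 0.05.

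INSR, the insulin receptor gene, was at 41.8, 48.3 and 51.4 CPM with DexKLA, 53.8, 44.0 and 48.4 CPM with Dex, 43.7, 38.7 and 34.8 CPM with KLA, and 49.6, 45.0 and 53.3 CPM with DMSO. The KLA libraries lay below all DMSO libraries, at −0.33 ± 0.12 on the log2 scale, which missed the threshold (adjusted p = 0.0717) and passed it without KLA replicate 1 (−0.42, adjusted p = 0.0457). Dex gave −0.03 (95% interval −0.28 to 0.22). DexKLA was 0.27 ± 0.12 above KLA with overlapping libraries (adjusted p = 0.433). INSR lies on chromosome 19 (7112265 to 7294414, minus strand, hg38).

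IRS1, the adaptor that carries the receptor's signal to PI3K, fell with KLA. Its level was 50.3, 52.0 and 48.3 CPM with DexKLA, 57.9, 40.7 and 48.4 CPM with Dex, 43.5, 47.6 and 24.7 CPM with KLA, and 73.8, 48.4 and 59.8 CPM with DMSO. KLA and DMSO stood apart only narrowly, since KLA replicate 2 (47.6 CPM) and DMSO replicate 2 (48.4 CPM) nearly met, and KLA replicate 3 was far below the others. Means were 38.6 ± 12.2 CPM with KLA and 60.7 ± 12.7 CPM with DMSO (SD, n = 3 each), a log2 fold change of −0.64 ± 0.19 (adjusted p = 0.029, edgeR's quasi-likelihood F test, Benjamini-Hochberg adjusted). Without KLA replicate 3 the value was −0.40 (adjusted p = 0.0944), without DMSO replicate 1 it was −0.48 (0.179) and without DMSO replicate 3 it was −0.65 (0.0679). Removal of the length trend gave −0.44 (adjusted p = 0.0871), and leaving out both DMSO replicate 1 and KLA replicate 3 gave −0.24 (adjusted p = 0.37). With the depth class as a covariate the value was −0.40 (adjusted p = 0.457).

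In the other groups IRS1 gave no call, with −0.32 ± 0.19 for Dex (adjusted p = 0.35) and −0.27 ± 0.19 for DexKLA (adjusted p = 0.438). DexKLA libraries were above KLA libraries without overlap, at 0.37 ± 0.18 (adjusted p = 0.481), as were 8.1% of all tested genes. The interaction of 0.70 ± 0.27 missed the threshold (adjusted p = 0.13). Without KLA replicate 3 these were 0.13 (adjusted p = 0.852) and 0.46 (0.197), and with the length trend removed 0.21 (0.822) and 0.37 (0.504). The IRS1 transcript lies on chromosome 2 (226731317 to 226798790, minus strand, hg38).

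IRS2, the adaptor that dominates in fasting liver of mice, was near the floor of detection. A library held between 1 and 21.5 counts, or 0.914, 2.09 and 0.997 CPM with DexKLA, 0.277, 0.516 and 1.10 CPM with Dex, 1.41, 0.676 and 0.447 CPM with KLA, and 1.13, 1.44 and 1.09 CPM with DMSO. Pooled over a group, the raw level in CPM of plain library totals was 1.15 with DexKLA (29 counts), 0.576 with Dex (15 counts), 0.792 with KLA (44 counts) and 1.31 with DMSO (17 counts). The exact Poisson 95% intervals, which cover counting error only, were 0.768 to 1.65, 0.322 to 0.9501, 0.576 to 1.06 and 0.761 to 2.09 in the same order, so Dex and DMSO overlapped. No IRS2 difference passed. Its counts were so low that it was tested in only 6 of the 12 fits that left out a library. The Dex value of −1.04 ± 0.61 (adjusted p = 0.336) had a wide 95% interval, −2.23 to 0.15. IRS2 lies on chromosome 13 (109752695 to 109786583, minus strand, hg38), and an antisense gene model shares 115 exon bases with it.

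FOXO1, the transcription factor that insulin signalling switches off, was at 12.6, 14.4 and 14.1 CPM with DexKLA, 19.4, 12.7 and 11.7 CPM with Dex, 16.8, 12.4 and 11.4 CPM with KLA, and 21.1, 16.9 and 19.0 CPM with DMSO. Apart from Dex replicate 1, at 19.4 CPM, the treated libraries lay below the DMSO libraries, only narrowly for KLA replicate 1 (16.8 CPM, against 16.9 CPM in DMSO replicate 2). The values were −0.42 ± 0.20 for Dex (adjusted p = 0.227), −0.48 ± 0.18 for KLA (0.0752) and −0.47 ± 0.19 for DexKLA (0.16), and none passed. Without KLA replicate 1 the KLA value was −0.66 and passed (adjusted p = 0.0259). FOXO1 lies on chromosome 13 (40555667 to 40666641, minus strand, hg38).

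**Figure D2:**
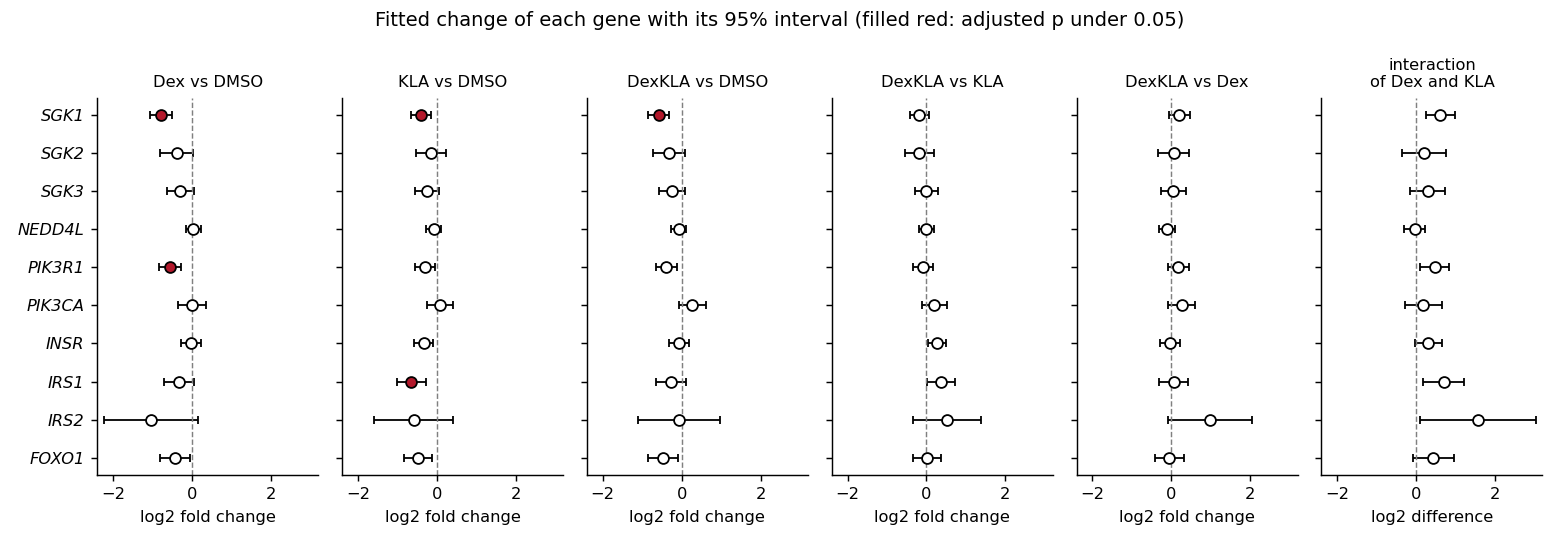
Fitted log2 fold change of each gene with its 95% interval in 5 pairwise comparisons, and the interaction of Dex and KLA as a log2 difference (right). Filled red points had an adjusted p under 0.05: SGK1 in the 3 comparisons with DMSO, PIK3R1 with Dex and IRS1 with KLA, all to the left of 0.

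Counted over the 10 genes, 2 were called lower with Dex than with DMSO (SGK1 and PIK3R1), beside 0.835% of all 13166 tested genes called lower and 2.05% called in either direction. With KLA 2 were called lower (SGK1 and IRS1), beside 5.94% called lower and 13.7% in either direction. With DexKLA 1 was called lower (SGK1), beside 1.38% and 4.22%. None was called higher in any of the 3, beside 1.22%, 7.78% and 2.84% of all genes. These 3 comparisons share the DMSO libraries, so they are not independent of each other. Libraries below all DMSO libraries were found for 2 genes with Dex, 5 with KLA (SGK1, PIK3R1, INSR, IRS1 and FOXO1) and 3 with DexKLA (SGK1, PIK3R1 and FOXO1), beside 13.6%, 18.3% and 12.8% of all tested genes. The median log2 fold change of the 10 was −0.35 with Dex, −0.31 with KLA and −0.25 with DexKLA, against −0.01, −0.02 and −0.02 for all genes. Values were below 0 for 8, 9 and 9 of the 10 genes, against 51.6%, 52.3% and 52.1% of all genes.

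Between treated groups no member was called by edgeR's quasi-likelihood F test, Benjamini-Hochberg adjusted. For DexKLA against KLA (0.653% of all genes called) 1 of the 10 (INSR) had an unadjusted p under 0.05, beside 10.5% of all genes, and for DexKLA against Dex (0% called, 7.1% at an unadjusted p under 0.05) 0 had. For the interaction (0.038% called) 4 of the 10 did, beside 22.2% of all genes. They were SGK1, PIK3R1, IRS1 and IRS2, the last near the floor of detection, and all 4 values were above 0. DESeq2 and limma voom called 0 of the 10 in these 3 comparisons too.

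**Figure D3:**
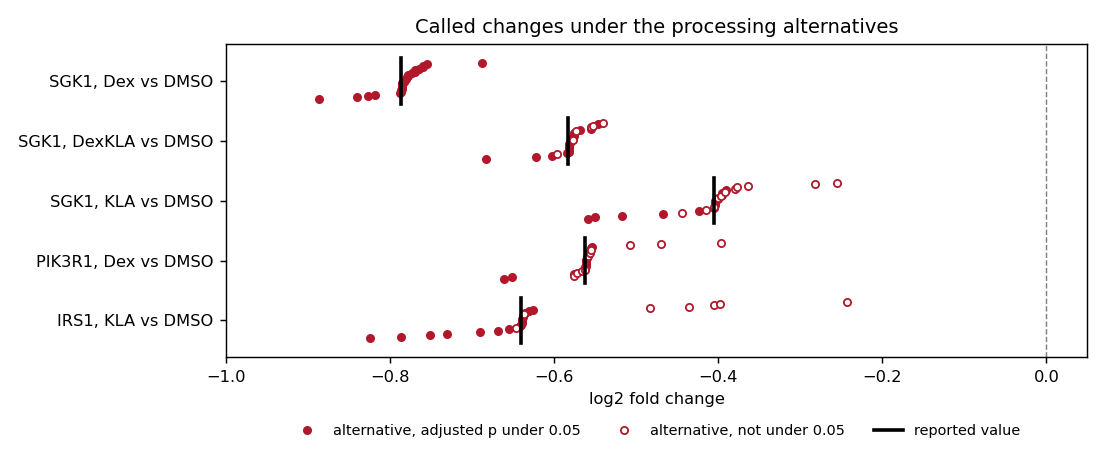
Log2 fold change of the 5 called differences under each processing alternative (points, filled where the adjusted p was under 0.05) with the reported value as a black bar. All points lie left of 0. SGK1 with Dex is filled throughout between −0.89 and −0.69, whereas IRS1 with KLA spreads from −0.82 to −0.24 with open points toward 0.

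Ordered by mean level over the 12 libraries, NEDD4L was at 26.6 CPM per kb, SGK1 at 13.6, SGK2 at 6.96, IRS1 at 5.68, INSR at 4.88, SGK3 at 4.40, PIK3CA at 3.73, PIK3R1 at 3.17, FOXO1 at 2.63 and IRS2 at 0.124 CPM per kb. NEDD4L exceeded SGK1, SGK1 exceeded SGK2 and FOXO1 exceeded IRS2 in all 12 libraries. The neighbours in between swapped places in 1 to 4 libraries, and INSR and SGK3 were the closest pair, with INSR higher in 8 of 12. The p110 alpha gene was above the p85 alpha gene in the mean of the DexKLA, Dex and KLA groups and below it in that of DMSO.

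**Figure D4:**
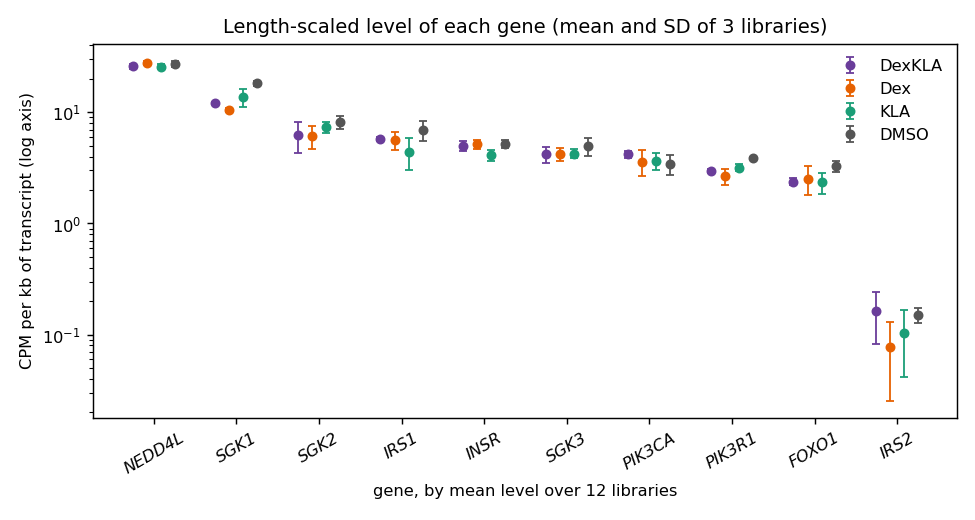
Level of each gene in CPM per kb of transcript on a log axis, mean and SD of 3 libraries, in the groups DexKLA, Dex, KLA and DMSO, with genes ordered by their mean over 12 libraries. NEDD4L is the highest at 26.6 CPM per kb, and IRS2 lies far below the rest at 0.124 CPM per kb.

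Other genes of the pathway were read from 5 lists with 102 genes, of which 86 passed the filter on low counts. With Dex 0 were called higher and 3 lower than with DMSO, with KLA 1 higher and 15 lower, and with DexKLA 1 higher and 2 lower. In all 3.49% (Dex), 18.6% (KLA) and 3.49% (DexKLA) of the 86 were called, beside 2.05%, 13.7% and 4.22% of all tested genes in the same order. Of all tested genes, 0.835%, 5.94% and 1.38% were called lower and 1.22%, 7.78% and 2.84% higher, in that order. These shares also stand beside the counts of each list below. The median log2 fold change of the 86 was −0.19 with Dex, −0.17 with KLA and −0.13 with DexKLA, against −0.01, −0.02 and −0.02 for all genes. The 16 calls with KLA fell to 0 without DMSO replicate 1 and to 6 without KLA replicate 3, to 8 without either other DMSO library and to 10 without KLA replicate 1. They also fell to 0 with the depth class as a covariate, where PCK1 was at −0.30 (adjusted p = 0.533) and G6PC at −0.96 (0.154). Without the farthest pair of libraries they fell to 0 as well, where G6PC was at −0.67 (0.12) and PDPK1 at −0.24 (0.38). The limits given for these fits with SGK1 hold for every KLA value of the lists. The covariate cannot separate depth from KLA treatment, and the pair was picked from these same data. The 3 calls with Dex fell to 0 without DMSO replicate 1 or Dex replicate 2 and to 1 without DMSO replicate 3 or Dex replicate 3, and were 5 without KLA replicate 3. They were 10 with the groups compared alone, 8 with no filter, and 1 with the depth class as a covariate or without the farthest pair. With DexKLA they fell to 1 without DMSO replicate 1 or DexKLA replicate 1, and were 5 without KLA replicate 3 and 6 without DexKLA replicate 3, and 5 with no filter. None of the 86 was called by edgeR for DexKLA against KLA (11 at an unadjusted p under 0.05), for DexKLA against Dex (4) or for the interaction (23), where DESeq2 called 1, 0 and 5 and limma voom 0 in each. Without DMSO replicate 1 or 2, 1 of them was called for DexKLA against KLA, and the interaction had 3 calls without Dex replicate 1 or KLA replicate 2 and 4 without DexKLA replicate 1. With no filter these comparisons had 4 and 8 calls, with library size alone the interaction had 3, and with the length trend removed DexKLA against KLA had 1.

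Among receptor adaptors and feedback genes (12 tested), 2 were lower with KLA. PTPN1, the phosphatase that removes phosphate from the insulin receptor, was at 36.7 ± 2.99 CPM with KLA and 52.9 ± 4.61 CPM with DMSO (−0.52 ± 0.13, adjusted p = 0.0141). IGF2R, which clears insulin-like growth factor 2, was at 127 ± 22.4 CPM with KLA and 201 ± 24.8 CPM with DMSO (−0.65 ± 0.15, adjusted p = 0.0132). Both calls held in 22 of 25 alternatives and ended without DMSO replicate 1 (adjusted p = 0.0826 and 0.0893), with the depth class as a covariate (0.219 and 0.27) or without the farthest pair (0.154 and 0.186). Of the PI3K subunits and lipid phosphatases (14 tested), PIK3C3, the class III PI3K of autophagy, rose by 0.45 ± 0.13 with KLA (adjusted p = 0.0247) and by 0.49 ± 0.13 with DexKLA (adjusted p = 0.0397). It was at 105 ± 13.2 CPM with DexKLA, 90.2 ± 7.36 CPM with Dex, 102 ± 10.3 CPM with KLA and 74.2 ± 12.7 CPM with DMSO. Neither call held without DMSO replicate 1 (0.34 with KLA and 0.37 with DexKLA, adjusted p = 0.137 and 0.251). With the depth class as a covariate PIK3C3 was at 0.63 with DexKLA (adjusted p = 0.0372) and 0.67 with KLA (0.154). Without the farthest pair both calls ended, at 0.37 with DexKLA (adjusted p = 0.143) and 0.34 with KLA (0.195). The KLA call also ended without DMSO replicate 2 or KLA replicate 1, and the DexKLA call without DMSO replicate 2, Dex replicate 3 or DexKLA replicate 1 or 2. PIK3CB, the p110 beta gene, fell by 0.42 ± 0.14 with KLA (adjusted p = 0.0448) and kept that call only without Dex replicate 2 or DexKLA replicate 3 (adjusted p up to 0.172 without the others).

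In the list of AKT, PDK1 and mTOR complexes (21 tested), 4 genes fell with KLA and none was called with Dex or DexKLA. They were PDPK1, the kinase that activates both AKT and SGK (−0.61 ± 0.18, adjusted p = 0.029), MTOR (−0.59 ± 0.17, 0.0262), RPTOR of mTOR complex 1 (−0.42 ± 0.13, 0.0371) and PHLPP1, a phosphatase of AKT (−0.50 ± 0.15, 0.032). With the length trend removed the values were −0.43 (PDPK1), −0.38 (MTOR), −0.23 (RPTOR) and −0.34 (PHLPP1), and none was called (adjusted p from 0.0718 to 0.182). Their transcripts are 6280 to 8661 bases long. The longer IGF2R (13992 bases, −0.41, adjusted p = 0.0355) and WNK1 (10766 bases, −0.51, 0.0296) kept their calls with KLA in that fit. With the depth class as a covariate the 4 values were −0.41 to −0.33 (adjusted p from 0.307 to 0.511). Without KLA replicate 3 they were −0.44 to −0.34 and none was called (adjusted p from 0.0915 to 0.115). None was called without DMSO replicate 1 either (−0.54 to −0.35, adjusted p from 0.102 to 0.177). The other libraries that ended a call were DMSO replicate 2 for PDPK1, RPTOR and PHLPP1, DMSO replicate 3 for MTOR, RPTOR and PHLPP1, and Dex replicate 3 and KLA replicate 1 for RPTOR.

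FOXO factors and targets (20 tested) included 5 genes lower with KLA, and 1 each with Dex and DexKLA. PCK1, a rate-limiting enzyme of gluconeogenesis, was at 28.6 ± 7.42 CPM with DexKLA, 29.4 ± 5.32 CPM with Dex, 31.3 ± 4.14 CPM with KLA and 56.2 ± 16.9 CPM with DMSO. Its DMSO libraries ran from 40.9 to 74.3 CPM and all treated libraries were below them. It fell by 1.00 ± 0.20 with DexKLA (adjusted p = 0.00838), 0.96 ± 0.20 with Dex (0.0134) and 0.83 ± 0.19 with KLA (0.0109), and the call ended in each case without DMSO replicate 1 (−0.76, −0.72 and −0.59, adjusted p = 0.105, 0.122 and 0.0916), and without Dex replicate 2 for Dex (0.147) and DexKLA replicate 1 for DexKLA (0.0581). With the depth class as a covariate PCK1 was at −0.64 with DexKLA (adjusted p = 0.111), −0.75 with Dex (0.0453) and −0.30 with KLA (0.533). The shallower libraries alone gave −0.57 for DexKLA, from 1 DexKLA library, and −0.77 for Dex (adjusted p = 0.00317). G6PC (current symbol G6PC1), which releases free glucose, fell by 1.10 ± 0.18 with KLA (adjusted p = 0.00675), with libraries at 44.7, 48.6 and 31.7 CPM with KLA against 121, 60.1 and 89.7 CPM with DMSO, and by 0.84 without DMSO replicate 1 (adjusted p = 0.0724). BCL2L11, a pro-apoptotic FOXO target, fell by 0.55 ± 0.17 (adjusted p = 0.0325) and CAT, which breaks down hydrogen peroxide, by 0.30 ± 0.10 (adjusted p = 0.0407) with KLA, and these calls held under 15 and 10 of 25 alternatives. Both were lost without any 1 of the DMSO libraries (adjusted p from 0.0613 to 0.143), KLA replicate 1 or KLA replicate 3, and that of CAT also without KLA replicate 2, Dex replicate 1 or 3, or DexKLA replicate 2.

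Of the SGK partners, substrates and ion transport genes (19 tested), SCNN1A, the alpha subunit of the epithelial sodium channel that NEDD4L removes, was lower in all 3 treated groups. It was at 23.8, 24.6 and 22.9 CPM with DexKLA, 31.6, 25.2 and 26.8 CPM with Dex, 28.8, 28.4 and 23.3 CPM with KLA, and 51.2, 35.9 and 41.5 CPM with DMSO, with no overlap between any treated group and DMSO. The fall was 0.84 ± 0.14 with DexKLA (adjusted p = 0.00305), 0.63 ± 0.15 with Dex (0.0262) and 0.66 ± 0.14 with KLA (0.00924). The DexKLA call held under 26 of 26 alternatives and without each library, whereas both other calls were lost without DMSO replicate 1 (adjusted p = 0.153 for Dex and 0.0735 for KLA). The Dex call was also lost without DMSO replicate 3 (0.0789), Dex replicate 2 (0.202) or Dex replicate 3 (0.107). With the depth class as a covariate the values were −0.74 with DexKLA (adjusted p = 0.0456), −0.57 with Dex (0.0828) and −0.52 with KLA (0.224). The genes of the other two sodium channel subunits, SCNN1B and SCNN1G, did not pass the filter. WWP2, a ligase related to NEDD4L, fell by 0.56 ± 0.13 with Dex (adjusted p = 0.034) and by 0.43 ± 0.13 with KLA (0.0307), and WNK1, a kinase that SGK1 phosphorylates, by 0.73 ± 0.19 with KLA (0.0174). Each of these calls was lost without DMSO replicate 1 (adjusted p = 0.172, 0.202 and 0.086 in that order). The WWP2 call with Dex was also lost without DMSO replicate 3 or any Dex library (0.0538 to 0.168). That with KLA was also lost without KLA replicate 1 (0.0564) or 3 (0.0688), and the WNK1 call without DMSO replicate 3 (0.0588) or KLA replicate 3 (0.0578). With the depth class as a covariate WWP2 was at −0.55 with Dex (adjusted p = 0.0779) and −0.42 with KLA (0.283), and WNK1 at −0.37 with KLA (0.478). With the length trend removed WWP2 was not called with Dex or KLA (0.07 and 0.09).

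**Figure D5:**
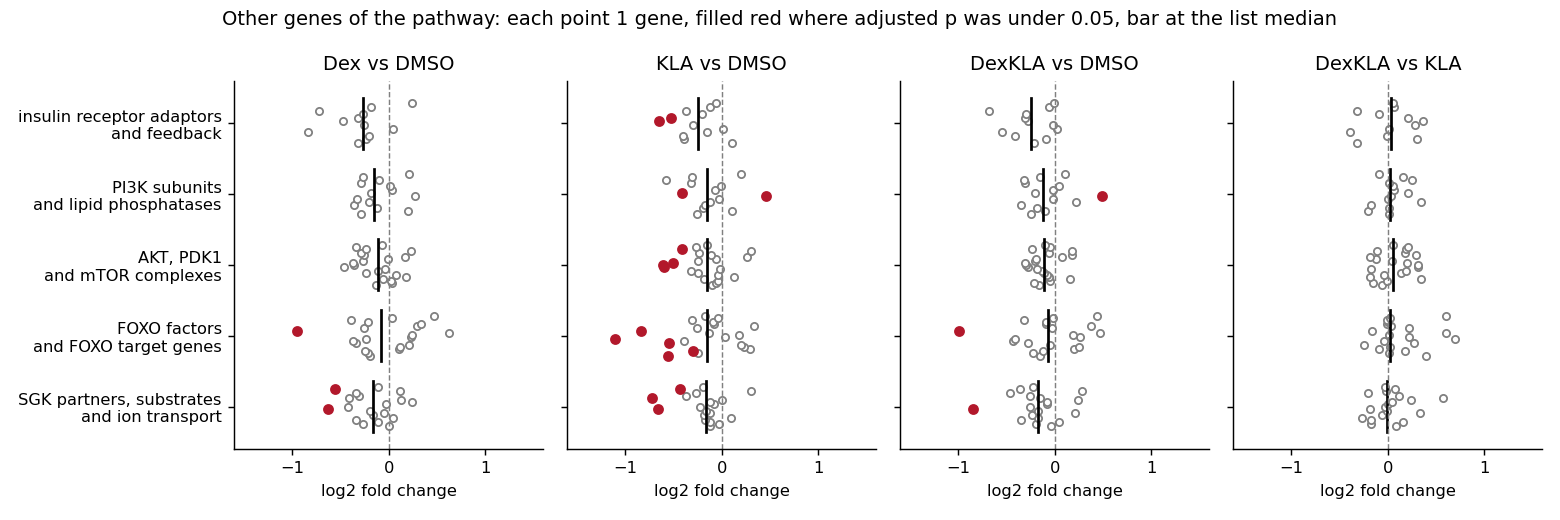
Log2 fold change of each tested gene of the 5 lists (rows) in 4 comparisons, with called genes filled red and a bar at the list median. Of the 16 red points with KLA, 15 lie left of 0, those with Dex and DexKLA are 3 each, and DexKLA against KLA has none.

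The genes whose log2 CPM followed SGK1 most closely over the 12 libraries were SMAD7 (Pearson r = 0.94), IL1R1 (0.93) and OSMR (0.93). OSMR, a receptor chain for oncostatin M, was at 43.6 CPM with DexKLA, 35.9 CPM with Dex, 44.9 CPM with KLA and 67.2 CPM with DMSO in the mean. For PIK3R1 they were NFIX (0.93), MFHAS1 (0.93) and NUAK1 (0.93), and for IRS2, whose counts are sparse, FRG1BP (0.89), GRHL1 (0.89) and LINC01560 (0.86). These were the highest of all tested genes at a mean log2 CPM of at least 1, they share libraries, depth and the length trend, and they are given as a description with no test.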

How the data were processed

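The deposited values for 70507 RefSeq transcripts in 12 libraries, in steps of 0.5, were taken as estimated counts and rounded to whole numbers. Per the submitters' processing notes, Trimmomatic, BWA 0.7.17 and HOMER 4.10 were used with hg38, with no role given. The 406 rows without a symbol (1.71% to 2.55% of a library's total) were left out. Genes were tested with edgeR 4.0.16 (R 4.3.3): filterByExpr with minimum count 10 left 13166 genes, TMM scaling, and a quasi-likelihood fit of 4 group means to 12 libraries and 8 residual degrees of freedom. P-values were adjusted over all tested genes of a comparison (Benjamini-Hochberg), and an adjusted p under 0.05 was a call. Intervals of fold changes are the fitted value and its SE at 95% with a normal quantile. They are thus narrower than the F test implies, and an interval can exclude 0 where the test's unadjusted p is above 0.05.

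The members, lists and tests were chosen with earlier results of these data known, and nothing here is independent support for them. The rule for naming took all 10 members, up to 4 called genes of each list by smallest p, and 3 genes most like SGK1, IRS2 and PIK3R1. Alternatives included DESeq2 1.42.0, limma 3.58.1 voom, other filters and scalings, library thinning to 3317740 counts, depth and length corrections, and leave-one-out. Other transcripts of the members, and the alternatives for list genes, were added after seeing the data. Scripts were tested on simulated data.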

Additional observations from a re-analysis of the deposited data

How the results depend on the processing

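Of 1486 member values under alternatives, 0 reversed among called values, 91 others changed sign while never called, 38 lost a call and 7 gained one. With 1 to 21.5 counts of IRS2 a library, no change of IRS2 was called, and its intervals were wide.

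Members called, Dex against DMSO: 1 in place of 2 with the replicate block, thinning, the length trend removed, depth class as a covariate, the shallower libraries alone or without the pair of libraries farthest apart, and 1 to 2 leaving out each library. DexKLA against DMSO: 0 in place of 1 with depth class as a covariate, and 0 to 1 leaving out each. KLA against DMSO: in place of 2, 4 with library size alone, 1 with the replicate block, the longest transcript or the length trend removed, 0 with the groups alone, depth class or without the farthest pair, and 0 to 4 leaving out each. Interaction: 1 (IRS1) in place of 0 without a filter. The cause of these moves was not tested.

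All genes called, Dex against DMSO: in place of 270, 650 with DESeq2, 909 with no filter, 134 with the replicate block, 1348 with the groups alone, 129 with depth class, 491 in shallower libraries, and 56 to 915 leaving out each. KLA against DMSO: in place of 1806, 1064 with the length trend removed, 4 with depth class, 5 without the farthest pair, and 5 to 2363 leaving out each. DexKLA against DMSO: in place of 556, 920 with DESeq2, 326 with limma voom, 987 with no filter, 325 with the replicate block, 173 with depth class, 902 in shallower libraries, 183 without the farthest pair, and 48 to 1461 leaving out each. DexKLA against KLA: in place of 86, 204 with no filter, 38 with the groups alone, 16 in deeper libraries, and 52 to 94 leaving out each. DexKLA against Dex: 12 with no filter in place of 0. Interaction: in place of 5, 0 with DESeq2 size factors, limma voom, the replicate block, depth class or without the farthest pair, 230 with library size alone, 705 with DESeq2, 1040 with no filter, 49 thinned, 2 with the length trend removed, and 0 to 681 leaving out each.

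The replicate numbers showed no clear pairing: same-numbered libraries had correlations of their deviations from −0.31 to 0.17 over 18 pairs, with 1 over 0.1. Differently numbered libraries ran from −0.31 (Dex replicate 2 and KLA replicate 1) to 0.44 (Dex replicate 2 and KLA replicate 3). With 3 libraries a group, this cannot show that no pairing exists. With the block, PIK3R1 with Dex had an adjusted p of 0.0645 and SGK1 with KLA 0.0511, and the other 3 called member values kept their calls.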
